A study of Mus musculus with 35 samples.

Results

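Cajal-Retzius neurons of the adult mouse hippocampus were described from single nuclei of 4 genotypes. A nucleus was taken as a member when its barcode held at least 1000 detected genes, at least 10 UMIs of Reln, at least 3 UMIs of Ndnf, Trp73, Lhx1 and Lhx5 together, at most 2 UMIs of Gad1 and Gad2 together and at most 2 UMIs of Mog and Mag together. A UMI is a molecular identifier that marks 1 captured RNA molecule. The rule found 615 nuclei among 144991 deposited barcodes, 0.501% of the 122747 barcodes with at least 1000 genes. Levels of the 9 rule genes are therefore given as a description.

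Cajal-Retzius neurons are among the earliest born neurons of the cortex. They are glutamatergic cells of the outermost layer that secrete reelin, the Reln product, an extracellular protein that guides the layering of migrating neurons through the receptors Vldlr and Lrp8 and the adaptor Dab1. Most die soon after birth, but a population persists in the adult hippocampus along the hippocampal fissure, where reelin is also made by GABAergic interneurons. Trp73, a relative of the tumour suppressor gene Trp53, and the homeobox genes Lhx1 and Lhx5 mark the lineage, while Ndnf encodes a secreted neurotrophic factor that is also found in some interneurons.

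Nuclei were isolated from frozen hippocampus of C57BL/6 mice at 9 months of age, with 3 libraries of WT animals, 3 of PS19, 4 of CLEAR and 4 of CLEAR_PS19, and 1 female in each group. In PS19 animals a mutant human MAPT (tau) transgene is driven by the Prnp promoter, that of the prion protein gene, and is not limited to the cell type studied here. From what is known of the study, and not from the labels, the allele of CLEAR animals disrupts the motif in Atp6v1h that TFEB recognises (the CLEAR element), and CLEAR_PS19 animals have both alleles. Bulk RNA-seq of hippocampus was available for PS19 and WT animals at 4 months (6 and 6 libraries) and 9 months (4 and 5 libraries), with 9630430 to 17182605 counts per library. The labels do not say whether each library is a separate animal, so p-values measure the spread between these libraries. Libraries were clustered by their correlations in granule neurons and cut into 3 sets, a number that was chosen and not found. The 4 females formed set 2, libraries 1 and 2 of CLEAR and of CLEAR_PS19 formed set 3, and the other 6 libraries formed set 1. The tau comparison was balanced over these sets, whereas set 3 held only animals with the CLEAR mutation. Within set 3, CLEAR 1 and 2 and CLEAR_PS19 1 and 2 were closer to each other in all other nuclei (chi-square per gene 3.90 and 6.50) than other pairs of a group (44.6 to 132), and they were kept as separate libraries.

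The members carried part of the Cajal-Retzius marker genes that the rule had not used, and the rest were sparse. Ebf3, a transcription factor of the lineage, was detected in 68.6% of members and in 0.257% of 8159 granule neurons of the dentate gyrus, although the median granule neuron held 10271 UMIs and the median member 3107. Cacna2d2, a calcium channel subunit, was detected in 82.9% and 0.956%, Slc17a6, the vesicular glutamate transporter VGLUT2, in 39.0% and 1.08%, Nr2f2 in 38.4% and 5.96%, and Nhlh2, a transcription factor, in 30.9% and 0.135%. In 1155 Reln interneurons (at least 10 UMIs of Reln and 5 of Gad1 and Gad2), with a median of 13792 UMIs, Ebf3 was detected in 0.260% of nuclei, Slc17a6 in 1.21% and Nhlh2 in 0.346%, whereas Cacna2d2 was detected in 41.3% and Nr2f2 in 22.7%. The remaining markers of the fixed list were sparse in members: Tbr1 in 17.1%, Zic1 in 11.7%, Ebf1 in 7.64%, Cxcr4 in 6.50%, Calb2 (calretinin) in 4.72%, Mab21l1 in 1.79% and Ebf2 in 1.46%. In granule neurons Tbr1 was detected in 7.57% of nuclei and each of the other sparse markers in at most 0.833%.

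Of the rule genes, Ndnf was detected in 98.7% of members, Trp73 in 81.0%, Lhx1 in 34.5% and Lhx5 in 15.3%. Reln ranged from 10 to 176 UMIs per member with a median of 27, and Trp73 from 0 to 11 with a median of 2. A group of 74 members had Ndnf but none of Trp73, Lhx1 and Lhx5, and Ebf3 was detected in 37.8% of them against 72.8% of the others. None of Trp73, Ebf3, Nhlh2 and Slc17a6 was detected in 39 members. Just inside the Reln threshold, at 10 to 12 UMIs, 55 members had Ebf3 in 58.2%, and just outside, at 7 to 9 UMIs, 30 nuclei that met the other criteria had it in 60.0%. At exactly 3 UMIs of the other 4 genes 40 members had Ebf3 in 47.5%, and at 2 UMIs 35 nuclei had it in 42.9%. Members with 1000 to 1199 genes (89) had Ebf3 in 51.7%, against 47.4% of the 38 nuclei with at least 800 but under 1000 genes. Both sides of these thresholds thus held nuclei with Cajal-Retzius markers. Just outside the Gad1 and Gad2 limit, at 3 or 4 UMIs, 47 nuclei had Ebf3 in 10.6%, and all 384 nuclei over it had it in 1.56%. A further 18 nuclei exceeded the Mog and Mag limit and had Ebf3 in 83.3%.

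The transcripts that set members apart from all other nuclei were ranked by the median over libraries of the difference in log2 CPM (counts scaled to a common library total), among 3748 genes with at least 50 CPM in members, leaving out the 9 rule genes. As the members were chosen by expression, this ranking is a description with no test. The 20 leading genes were, in order, Lhx1os, Gm27199, Mab21l3, Gm31938, Nhlh2, Ebf3, Cd274, Pik3c2g, Gm49027, Gm47352, Ggt5, Gm10475, Vmn2r2, Gm36043, Dach1, Eln, Vmn2r1, Hydin, Igsf9 and B230323A14Rik, and 19 of them were higher in members in all 14 libraries. Some lie in rule genes: in the annotation Gm27199 overlaps Lhx5 and Gm10475 overlaps Reln, and their reads cannot be told apart from those genes' transcripts by these counts. Vmn2r1 and Vmn2r2 belong to a family of pheromone receptor genes with similar copies and are uncertain for that reason. Nhlh2 averaged 97.6 ± 39.3 CPM in members and 0.310 ± 0.083 in all other nuclei (SD, n = 14), and Ebf3 403 ± 125 and 2.49 ± 1.69. Dach1, a transcriptional regulator, averaged 1825 ± 401 and 29.4 ± 6.29 CPM, Eln, the elastin gene, 301 ± 100.7 and 4.86 ± 1.15, and Cd274, which encodes the immune checkpoint ligand PD-L1, 132 ± 57.2 and 1.65 ± 1.66. Pik3c2g, a class II phosphoinositide kinase, averaged 248.98 ± 77.2 and 1.81 ± 0.355 CPM. These genes were also low in Reln interneurons, at 19.7 ± 13.2 CPM for Dach1, 6.78 ± 4.48 for Eln and 0.758 ± 0.904 for Pik3c2g.

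**Figure D1:**
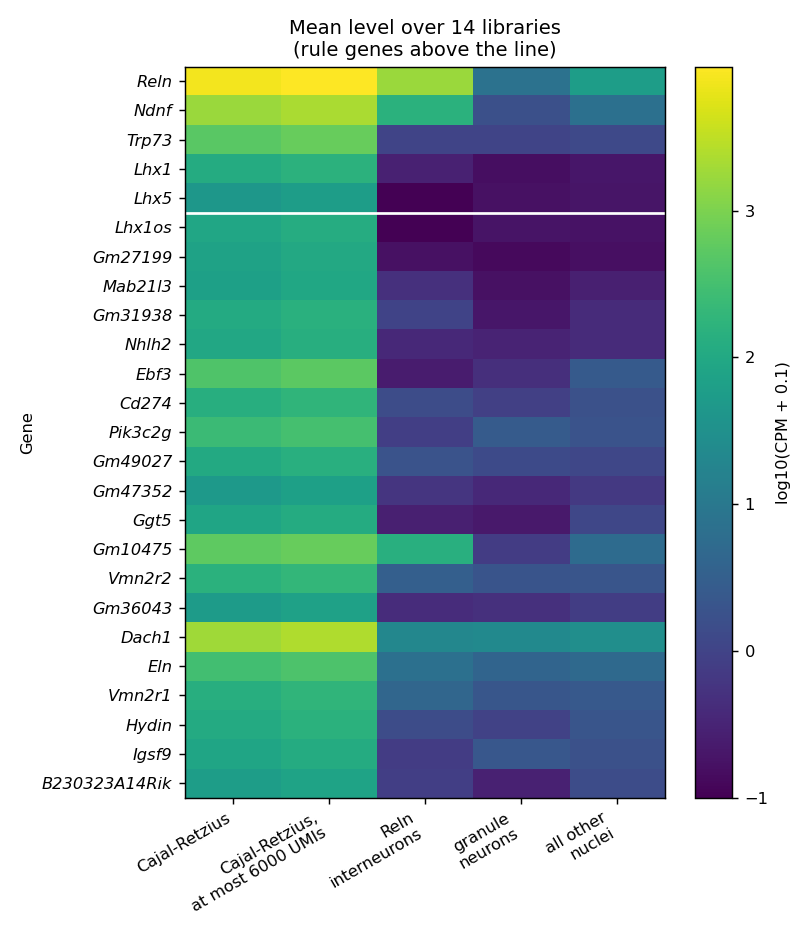
Mean level of the 5 positive rule genes (above the white line) and the 20 leading genes in Cajal-Retzius nuclei, in those of at most 6000 UMIs, in Reln interneurons, in granule neurons and in all other nuclei. Colour gives log10(CPM + 0.1) of the mean over 14 libraries, with Dach1 at 1825 CPM in Cajal-Retzius nuclei and 29.4 in all other nuclei.

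Because members are rare, the share of each gene's UMIs that came from them was computed over all nuclei with at least 1000 genes. Members held 0.256% of all UMIs but 25.4% of those of Reln, 39.5% of Ndnf, 53.9% of Trp73, 75.5% of Lhx1, 54.5% of Lhx5, 45.3% of Nhlh2 and 29.9% of Ebf3. Their part was 8.31% for Cacna2d2, 15.7% for Cxcr4, 3.99% for Slc17a6, 3.46% for Zic1, 2.89% for Nr2f2, 2.07% for Tbr1, 1.90% for Calb2 and 1.37% for Ebf1. Most UMIs of Trp73, Lhx1 and Lhx5 thus lay in members, and most UMIs of the other genes named here lay in other nuclei. The part in members varied by library, from 11.8% to 74% for Nhlh2 and from 16.6% to 46.2% for Ebf3.

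Members were small in RNA content. The median member held 3107 UMIs and 1620 genes, and library medians ranged from 2500 to 4178.5 UMIs, below those of all other nuclei (4632 to 9257) in 14 of 14 libraries. Reln interneurons had library medians of 8124 to 16868 UMIs and granule neurons of 7058 to 13059. The deepest members differed from the rest in content. The 77 members over 6000 UMIs held 36.2% of all member UMIs. Slc17a7, the glutamate transporter of granule and pyramidal neurons, was detected in 51.9% of them and in 3.13% to 11.1% of the others. Barcodes with the highest Scrublet scores were called doublets up to a preset rate, so that the share called per library (5.87% to 13.3% of the barcodes scored) was set by the number of barcodes and is no measurement. Of the 77 deep members 24 were among those called (31.2%), and of all 615 members 42 (6.83%). Ebf3, which the rule did not use, was detected in 67.5% of the deepest members and in 48.4% to 78.5% of the lower depth classes. Some transcripts that are abundant in other neurons fell steeply without these nuclei: Grin2a averaged 711 ± 448 CPM in all members and 152 ± 177 in the 538 members of at most 6000 UMIs, and Grm5 675 ± 291 and 80.9 ± 54.3. Others did not: Gria1 averaged 1272 and 1080 CPM, Gria2 1471 and 1243 CPM, and Mapt 271 and 277 CPM. For some genes and lists below, levels without these deep members are given too, with a limit chosen after the depths were seen. Whether they are 2 nuclei in 1 droplet was not tested beyond these values.

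**Figure D2:**
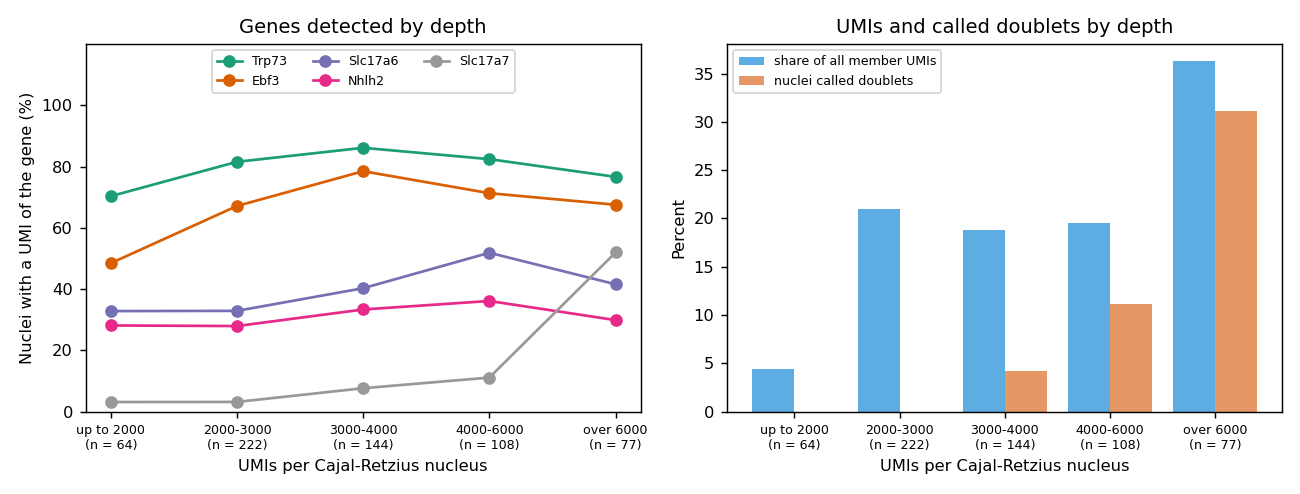
Cajal-Retzius nuclei in 5 classes of UMIs per nucleus. Left, percentage of nuclei with a UMI of 5 genes, where Slc17a7 reaches 51.9% over 6000 UMIs. Right, each class's percentage of all member UMIs and the percentage of its nuclei called doublets.

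RNA of other cell types was present in members. The summed level of 8 microglia markers had a median of 237 CPM over libraries (96.3 to 488), against 257 CPM in all other nuclei. It ranged from 96.3 to 163 CPM for WT, from 260 to 488 for PS19, from 147 to 317 for CLEAR and from 184 to 324 for CLEAR_PS19. Csf1r and C1qc were at 0 in WT and Tyrobp in CLEAR. The 7 vascular and meningeal markers summed to 0 to 47.5 CPM (median 17.4, against 27.6 in all other nuclei), with Cldn5, Col1a2 and Slc6a13 at 0 in every library and Rgs5, a pericyte marker, at 8.73 ± 7.49 CPM against 1.505 in all other nuclei. The 4 choroid plexus and ependymal markers summed to 0 to 63.6 CPM (median 9.65, against 10.5), with Folr1 at 0 in every library and Ttr at 14.2 ± 20.6 CPM against 10.1. The 5 interneuron markers outside the rule summed to 6.79 to 65.9 CPM, the 5 granule neuron markers to 159 to 503 CPM against a median of 674 in all other nuclei, and the 4 oligodendrocyte markers outside the rule to 92.5 to 706 CPM against 1120. The 6 astrocyte markers summed to 83.6 to 436 CPM, the 4 oligodendrocyte precursor markers to 30.8 to 488 (21.5 to 123 in members of at most 6000 UMIs) and the 5 pyramidal neuron markers to 30.8 to 162. The part of this RNA in the comparisons below was not tested.

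The number of members per library was 45, 56 and 33 for WT, 75, 62 and 42 for PS19, 32, 41, 38 and 34 for CLEAR, and 48, 35, 60 and 14 for CLEAR_PS19. As a share of nuclei with at least 1000 genes this was 0.449%, 0.780% and 0.427% for WT, 0.731%, 0.670% and 0.571% for PS19, 0.393%, 0.503%, 0.506% and 0.402% for CLEAR, and 0.425%, 0.276%, 0.729% and 0.216% for CLEAR_PS19. Every PS19 library lay above every CLEAR library, while the other pairs of groups overlapped. CLEAR_PS19 ran from the lowest library of all (0.216%, Wilson 95% interval 0.129 to 0.363, for counting error only) to 0.729%. Group means were 0.552% ± 0.198 (SD, n = 3), 0.657% ± 0.081 (n = 3), 0.451% ± 0.062 (n = 4) and 0.412% ± 0.229 (n = 4). With the tau transgene the share was higher by 0.033 percentage points averaged over both CLEAR backgrounds (two-sided exact permutation within background, p = 0.696, adjusted over 2 tests 0.696). With the CLEAR mutation it was lower by 0.173 points (difference -0.173, exact permutation p = 0.0718, adjusted 0.144). With nuclei thinned to 4000 UMIs and shallower ones left out, 200 nuclei met thresholds lowered to match. This form left out the 430 of 615 members under 4000 UMIs, so it covers the deeper nuclei only. In it the tau difference was 0.152 points (adjusted exact permutation p = 0.117) and the CLEAR difference -0.061 points (adjusted exact permutation p = 0.404). Neither difference passed the test in either form, and the smallest p the permutations of all nuclei can give is 0.0014 and 0.00082. Within library sets the CLEAR difference was -0.115 points (exact permutation p = 0.417, adjusted 0.667). Without CLEAR_PS19 3 it was -0.226 points (adjusted exact permutation p = 0.0457). A share of nuclei depends on how nuclei of every type were recovered, and fewer Cajal-Retzius cells cannot be told apart from less recovery of their nuclei.

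**Figure D3:**
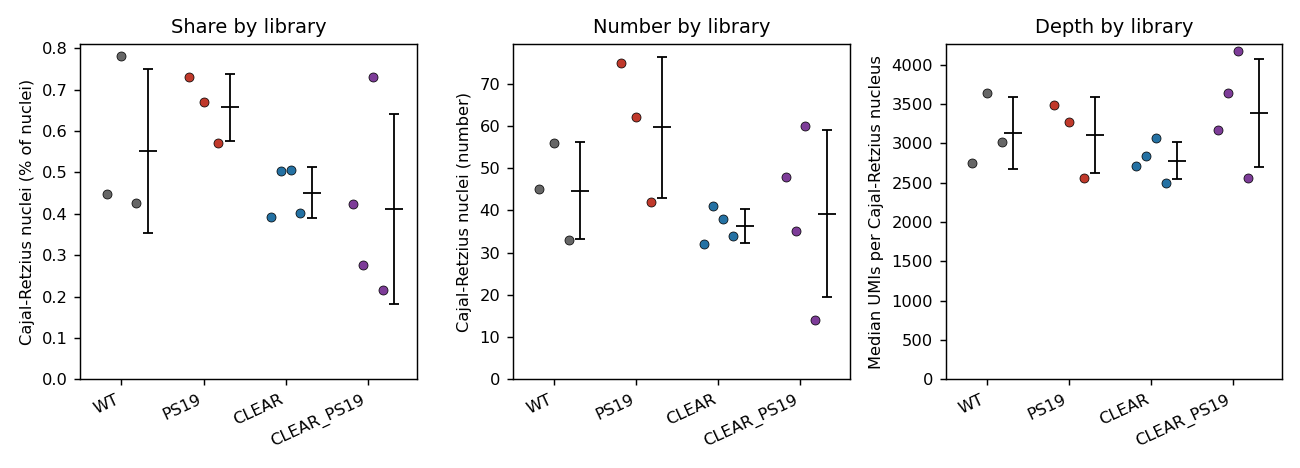
Share of Cajal-Retzius nuclei among nuclei with at least 1000 genes (left), their number (middle) and their median UMIs (right) in each of 14 libraries, with the mean and SD of each group beside the points. PS19 lies above CLEAR in share (0.571% to 0.731% against 0.393% to 0.506%) and in number, the other pairs of groups overlap in both, and CLEAR_PS19 spans 0.216% to 0.729%.

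Expression in members was then compared across genotypes on UMI counts summed per library (49393 to 346886 UMIs per library), with 4076 genes tested by edgeR's quasi-likelihood test in 1 fit with sex as a covariate. For the tau transgene, averaged over both CLEAR backgrounds, 1 gene (0.0245% of those tested) was called at an adjusted p under 0.05, and 4.10% had an unadjusted p under 0.05 (1.99% higher, 2.11% lower). For the CLEAR mutation 0 genes (0%) were called by edgeR, with 362 (8.88%) at an unadjusted p under 0.05 (4.64% higher, 4.24% lower). For the interaction of both, 0 (0%) were called, with 157 (3.85%) at an unadjusted p under 0.05 (2.01% higher, 1.84% lower). DESeq2 called 1, 0 and 0 genes in these 3 comparisons. The standard error (SE) of an edgeR log2 fold change was derived as the size of that change over the square root of the test's F statistic. It is approximate, above all for very small fold changes and for genes with few counts. Its median was 0.24 for tau and for CLEAR and 0.48 for the interaction, a rough guide to the change detectable in a single gene at this depth.

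The called gene was Gm43049, a long intergenic noncoding RNA of unknown function (GRCm38, chr3:140692038-140760704, minus strand), which overlaps no other annotated gene. Its UMI counts in members were 0, 0 and 0 for WT and 0, 0, 0 and 0 for CLEAR, but 27, 17 and 8 for PS19 and 21, 12, 23 and 5 for CLEAR_PS19. Every library with the transgene was above every library without it. At 81.8, 65.9 and 58.2 CPM in PS19 and 91.6, 71.3, 66.3 and 101.2 CPM in CLEAR_PS19, the groups with the transgene overlapped. The log2 fold change was 6.82 (SE 0.67, edgeR adjusted p 6.7e-04), a value that depends on the prior count. Counted over groups, 113 UMIs with the transgene against 0 without it give an at least 27.5-fold higher level, taking 3 counts over the libraries without it as the floor. The same mark was present outside the members, at 102 CPM in all other nuclei with the transgene and 0.0466 CPM without it. The first exon is shown to identify the transcript, from GENCODE at chr3:140760606-140760704 (GRCm38, minus strand), with the bases shared by both annotated transcripts in capitals.
Gm43049 exon 1: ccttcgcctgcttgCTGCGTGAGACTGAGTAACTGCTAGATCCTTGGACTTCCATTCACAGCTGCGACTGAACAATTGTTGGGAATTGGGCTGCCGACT

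Within members, Gm43049 was distributed unevenly by nucleus size, a split made after the values were seen and given with no test. In members of at most 6000 UMIs the counts were 16, 9 and 7 in PS19 and 1, 1, 4 and 0 in CLEAR_PS19, which pooled to 65.1 CPM (32 UMIs in 21 of 158 nuclei) and 14.003 CPM (6 UMIs in 6 of 127 nuclei). In members over 6000 UMIs they pooled to 85.4 CPM in PS19 (20 UMIs in 11 of 21 nuclei) and 150.5 CPM in CLEAR_PS19 (55 UMIs in 15 of 30 nuclei). Most of the CLEAR_PS19 counts thus came from the large nuclei, while those of PS19 came from both. Granule neurons of 2000 to 6000 UMIs had 80.0, 88.3 and 89.6 CPM in PS19 and 119, 100.6, 25.8 and 123 CPM in CLEAR_PS19. Among members of at most 6000 UMIs Gm43049 did not pass the filter on low counts and was not tested, and without called doublets its adjusted p was 0.0524 (log2 6.57).

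Prnp encodes the prion protein, and its promoter drives the transgene. In members its level was 44.9, 74.5 and 61.7 CPM for WT, 185, 120 and 102 for PS19, 69.0, 111, 74.7 and 46.3 for CLEAR and 166, 166, 127 and 60.7 for CLEAR_PS19. PS19 lay above WT in every library, whereas CLEAR_PS19 overlapped CLEAR through its smallest library, with 3 UMIs of Prnp. The log2 fold change was 1.00 (SE 0.21, unadjusted p 1.6e-04) but edgeR's adjusted p was 0.224, so it was not called. Whether transcripts of the transgene were counted as Prnp is not given in the sources used here. With no filter on low counts Prnp did pass, as given below where the processing was varied. The effect was 1.16 (SE 0.31) in PS19 against WT and 0.83 (SE 0.28) in CLEAR_PS19 against CLEAR. An exact permutation of the tau label on the log2 CPM of this gene alone gave 0.85 (p = 0.0086, two-sided). In members of at most 6000 UMIs it gave 0.64 (p = 0.0643, exact permutation). Both permutations were added after the data were seen, and their p-values are not adjusted, so they do not stand in for the planned test. Prnp overlaps Prn in the annotation (chr2:131909928-131938429, GRCm38). The 250 bases before its start, from RefSeq (GRCm38.p6, chr2:131909678-131909927, plus strand), are shown because the transgene uses this promoter, with GC boxes (GGGCGG on either strand, which reads CCGCCC on the other) in capitals.
Prnp upstream: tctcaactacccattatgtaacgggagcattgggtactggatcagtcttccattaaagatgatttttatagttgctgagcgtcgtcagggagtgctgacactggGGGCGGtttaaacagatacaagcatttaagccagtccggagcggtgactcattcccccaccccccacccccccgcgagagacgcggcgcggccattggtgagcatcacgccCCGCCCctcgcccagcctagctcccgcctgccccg
The window held 2 matches, and 16.7% of 32851 windows of the same length in the RefSeq table held as many (32.7% held at least 1). The E-box CACGTG, searched in the same way, was found 0 times here and in 6.02% of windows.

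Mapt, the mouse tau gene, did not differ detectably in members. It was at 282, 248 and 257 CPM for WT, 261, 287 and 211 for PS19, 233, 260, 299 and 294 for CLEAR and 257, 351, 308 and 243 for CLEAR_PS19, with full overlap of the groups (log2 0.04, SE 0.15, edgeR adjusted p 1.0). Whether reads of the human transgene were counted as Mapt is not given in the sources used here.

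Atp6v1h encodes a regulatory subunit of the V-ATPase, the proton pump that acidifies lysosomes, and carries the CLEAR mutation. Its level in members was 122, 114 and 72.0 CPM for WT, 136, 105 and 109 for PS19, 121, 82.9, 47.5 and 46.3 for CLEAR and 69.8, 83.2, 34.6 and 40.5 for CLEAR_PS19. CLEAR_PS19 lay below PS19 in every library, while CLEAR overlapped WT. Averaged over both tau backgrounds it was lower with the mutation by 0.82 on the log2 scale (log2 -0.82, SE 0.24, unadjusted p 0.0028, edgeR adjusted p 0.527), which was not a call over all genes. An exact permutation of the CLEAR label on this gene alone gave -0.72 (p = 0.0204, two-sided), and -0.84 in members of at most 6000 UMIs (p = 0.0098, exact permutation). These permutations were also added after the data were seen, and their p-values are not adjusted. With the library set as a block the edgeR value was -1.41 (adjusted p 0.152). Members held 231 UMIs of Atp6v1h in all, 0.281% of those of the tissue. Atp6v1h overlaps Rgs20 in the annotation (chr1:5070018-5162529, GRCm38).

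**Figure D4:**
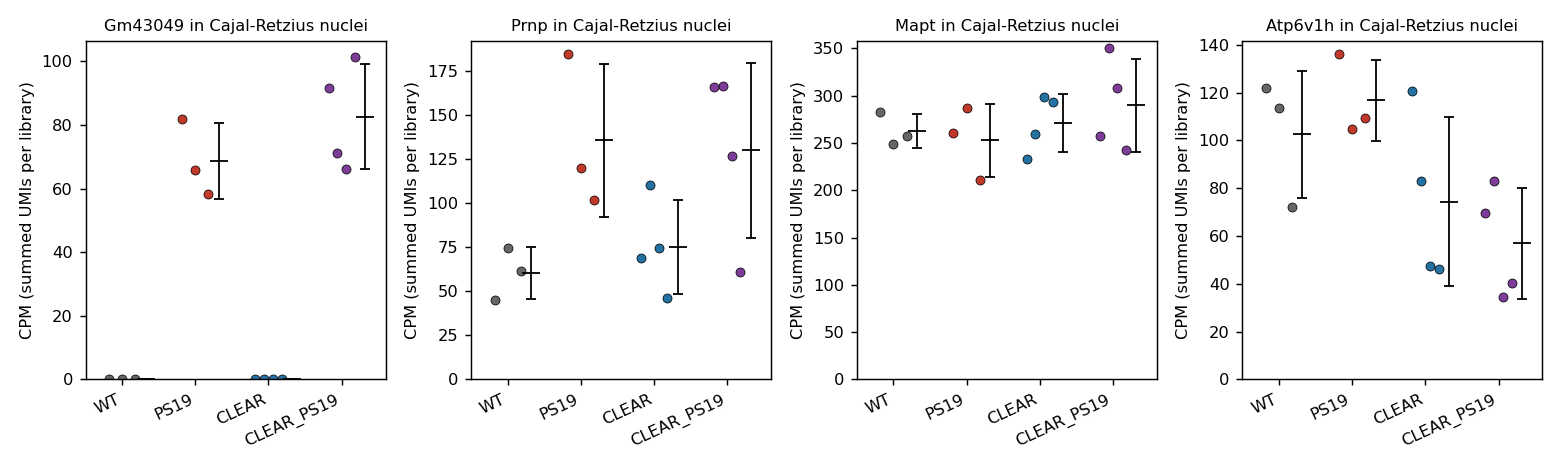
Level (CPM of UMIs summed over Cajal-Retzius nuclei) of Gm43049, Prnp, Mapt and Atp6v1h in each of 14 libraries, with group means and SD beside the points. Gm43049 is at 0 in all 7 libraries without the tau transgene and at 58.2 to 101.2 CPM with it, and Mapt overlaps in all groups.

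Whether these effects differed from those in other cells was tested within libraries, as the difference between the log2 CPM of a gene in members and in another class. For Atp6v1h the CLEAR effect was -0.72 in members, -0.68 in Reln interneurons, -1.19 in granule neurons and -0.86 in all other nuclei. The difference of members from granule neurons was 0.47 (two-sided exact permutation p = 0.071, adjusted over 6 differences 0.266), and from Reln interneurons -0.04 (adjusted exact permutation p = 0.876). Against all other nuclei it was 0.14 (adjusted exact permutation p = 0.824). For Prnp the tau effect was 0.85 in members, 1.11 in Reln interneurons, 1.17 in granule neurons and 0.90 in all other nuclei, with differences of -0.26, -0.32 and -0.05 (adjusted exact permutation p of 0.34, 0.266 and 0.876). None of the 6 differences passed the test, which does not show that the cell classes respond alike.

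Genes of the reelin pathway were measured beside Reln itself. Lrp8, a reelin receptor, averaged 63.7 ± 23.7 CPM in members and 49.6 CPM in all other nuclei, and Vldlr, the other receptor, 15.8 ± 9.42 and 31.4 CPM. Vldlr was lower in members in 14 of 14 libraries and averaged 9.23 CPM in members of at most 6000 UMIs. Dab1 averaged 800 ± 413 CPM in members, 207 CPM in members of at most 6000 UMIs and 2391 CPM in all other nuclei, where it was higher in 14 of 14 libraries. Pafah1b1 (Lis1) averaged 315 ± 57.8 and 285 CPM, and Fyn, the kinase that phosphorylates Dab1, 156 ± 39.6 and 136 CPM. Of the 14 genes 8 were tested and 0 were called for tau or CLEAR. Reln itself was at 7964, 8232 and 11198 CPM for WT, 8241, 9129 and 9494 for PS19, 6734, 5056, 9826 and 6921 for CLEAR and 5219, 5852, 6703 and 6681 for CLEAR_PS19. In members of at most 6000 UMIs Reln averaged 10372 ± 2069, 10841 ± 713, 9685 ± 1905 and 7889 ± 467 CPM in these groups. Trp73 was at 578, 483 and 699 CPM for WT, 557, 651 and 539 for PS19, 569, 470, 659 and 572 for CLEAR and 410, 291, 496 and 223 for CLEAR_PS19. Both are rule genes, so these are levels with no test. Members over 6000 UMIs held 0% to 38.2% of member UMIs in WT libraries and 39.2% to 53.02% in CLEAR_PS19 libraries, and the part of this difference in the levels was not tested.

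Markers outside the rule did not pass the test in either comparison, with 7 of 12 tested and 0 called. Ebf3 averaged 487 ± 133 CPM for WT, 441 ± 140 for PS19, 413 ± 121 for CLEAR and 302 ± 74.8 for CLEAR_PS19. In members of at most 6000 UMIs it averaged 570 ± 104, 558 ± 216, 562 ± 122 and 436 ± 109 CPM in these groups. Over all members Slc17a6 averaged 123 ± 17.5, 142 ± 15.9, 141 ± 32.8 and 123 ± 26.0 CPM. The median log2 fold change of the 7 genes was 0.01 for tau and -0.11 for CLEAR, against -0.00 and 0.01 over all genes tested.

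Chloride transport and GABA receptor genes have been of interest because GABA can excite Cajal-Retzius cells. Slc12a5 (KCC2), which extrudes chloride, averaged 37.8 ± 27.1 CPM in members and 89.0 CPM in all other nuclei, and was lower in members in 14 of 14 libraries, with 22.7 CPM in members of at most 6000 UMIs. Slc12a2 (NKCC1), which imports it, averaged 45.0 ± 23.1 and 71.7 CPM, with 33.9 CPM in members of at most 6000 UMIs. Slc12a7 (KCC4) averaged 14.5 ± 9.10 and 0.655 CPM. Of the GABA receptor subunits, Gabrg3 averaged 634 ± 387 CPM in members and 586 in all other nuclei but was higher in members in only 6 of 14 libraries, and in members of at most 6000 UMIs it averaged 471 CPM, below all other nuclei. Gabra2 averaged 191 ± 51.7 CPM in members, 107 CPM in those of at most 6000 UMIs and 498 CPM in all other nuclei. Of 16 genes in the list 11 were tested and 0 were called for tau or CLEAR. Among glutamate genes Gria4, an AMPA receptor subunit, was higher in members in 14 of 14 libraries (1102 ± 198 and 488 CPM), and in members of at most 6000 UMIs it averaged 1226 CPM. Reln interneurons had a higher level still, 1738 ± 146 CPM. Gria1 averaged 1272 ± 237 and 2146 CPM and Gria2 1471 ± 308 and 1964 CPM. Of 19 glutamate genes 15 were tested and 0 were called.

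Several receptor genes of these lists were higher with the CLEAR mutation at an unadjusted p under 0.05 without being called: 5 of 15 glutamate genes, 2 of 11 chloride and GABA receptor genes and 1 of 8 reelin pathway genes, where 4.64% of all genes tested were higher at that level. Grin2b averaged 314 ± 266 CPM for WT, 358 ± 37.1 for PS19, 558 ± 150 for CLEAR and 789 ± 79.9 for CLEAR_PS19. In members of at most 6000 UMIs Grin2b averaged 110 ± 110, 79.1 ± 16.8, 62.6 ± 52.7 and 145 ± 68.9 CPM, and 1 of 11 glutamate genes and 0 of 7 chloride and GABA receptor genes remained higher at an unadjusted p under 0.05. Fewer genes were tested there, and the part of the deep members in these differences was not tested further. Library WT 2, in which deep members held 38.2% of UMIs against 21.6% and 0% in WT 1 and 3, moved the number of calls: without it 53 genes were called for CLEAR, 47 of them higher, led by Grin2b, Grin2a, Ryr2, Dab1, Rbfox3 and Csmd1, which were picked after their values were seen. All 47 were lower in members of at most 6000 UMIs than in all members, and without WT 2 and without members over 6000 UMIs 0 genes were called by edgeR, where 2866 genes in place of 4432 were tested, 37 of the 53 among them.

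Genes of the lysosome and the V-ATPase were detected in part. Of 51 lysosomal genes 16 were tested and 0 were called for tau or CLEAR, with median log2 fold changes of -0.06 and -0.06. Compared with all other nuclei, Npc1, which exports cholesterol from lysosomes, averaged 94.6 ± 33.7 and 46.8 CPM and Scarb2, a lysosomal membrane protein gene, 73.1 ± 21.7 and 37.9 CPM, both higher in members in 14 of 14 libraries. Mitf, a transcription factor related to TFEB, averaged 229 ± 70.1 and 94.9 CPM and Arsb, a lysosomal sulfatase, 126 ± 31.8 and 140 CPM. Of 19 V-ATPase genes 10 were tested and 0 were called. Atp6v0b averaged 238 ± 61.9 CPM in members, Atp6v0a1 213 ± 41.1 and Atp6v0c 124 ± 54.9, against 286, 255 and 92.0 CPM in all other nuclei.

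Genes of the p53 pathway and of cell death were mostly too sparse to test, with 2 of 16 tested. Mdm2, the ubiquitin ligase that restrains p53, averaged 73.4 ± 25.8 CPM in members and 39.3 CPM in all other nuclei, and was higher in members in 14 of 14 libraries. By group it averaged 50.6 ± 17.5, 83.6 ± 28.5, 67.2 ± 22.1 and 89.0 ± 25.6 CPM in WT, PS19, CLEAR and CLEAR_PS19 (log2 0.50 for tau, edgeR adjusted p 1.0). None of 14 interferon and complement genes and 1 of 18 immediate early and stress genes (Hspa5) reached the counts needed for a test.

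Bulk libraries gave a measurement of these genes in samples that the rule had not used. Of the 17 Cajal-Retzius genes 16 were tested, all but Lhx5. At 9 months 1 was called between PS19 and WT, where 12.8% of all 16133 genes tested were called, and DESeq2 called 2. A count this near the background is not a result about these genes as a group. The called gene was Calb2 (calretinin), at 52.1, 45.5, 49.9, 40.6 and 50.4 CPM in WT and 34.2, 17.9, 24.7 and 30.1 CPM in PS19. The groups did not overlap, and Calb2 fell by 0.87 on the log2 scale (log2 -0.87, SE 0.18, edgeR adjusted p 0.0026). In nuclei, members held 1.90% of the UMIs of this gene, which interneurons and mossy cells are known to express.

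Of the genes with the largest part in members, none passed edgeR's test at 9 months with all libraries, but the calls depended on the tool and on the libraries. Leaving out each of 21 libraries in turn kept 1 call in 16 cases and gave 2 without WT 4 or PS19 3 of 9 months or PS19 2 or 3 of 4 months. DESeq2 called Nhlh2 (adjusted p 0.0448), and edgeR called Ebf3 (adjusted p 0.0344) without the 4-month library PS19 5, which shares the fit and without which 3 were called. Nhlh2 was at 3.13, 2.17, 2.56, 1.13 and 1.60 CPM in WT and 1.27, 1.65, 1.04 and 0.772 in PS19 (log2 -0.88, SE 0.29, edgeR adjusted p 0.0512), with overlapping groups. Ebf3 was at 5.54, 5.67, 4.77, 4.36 and 6.16 CPM in WT and 3.55, 2.83, 3.46 and 3.40 in PS19 (log2 -0.72, SE 0.27, edgeR adjusted p 0.0814), with no overlap. Lhx1 averaged 0.818 ± 0.468 and 0.384 ± 0.236 CPM (log2 -1.11, SE 0.49, edgeR adjusted p 0.15). Trp73 was at 10.998, 8.34, 9.02, 8.24 and 7.45 CPM in WT and 9.39, 9.58, 8.64 and 5.79 in PS19 (log2 -0.11, SE 0.18, edgeR adjusted p 0.764). Reln averaged 84.9 ± 9.29 and 79.2 ± 2.64 CPM and Ndnf 33.8 ± 2.85 and 33.5 ± 4.17 CPM. Other genes of the list were higher in PS19 without being called. Ebf1 was at 4.15, 4.00, 4.13, 3.64 and 3.14 CPM in WT and 4.99, 4.71, 5.18 and 5.48 in PS19 (log2 0.38, SE 0.14, edgeR adjusted p 0.0788), with no overlap, and Cxcr4, a chemokine receptor gene, at 4.52 to 6.17 and 5.97 to 8.64 CPM (log2 0.54, edgeR adjusted p 0.132). Of the 16 genes 7 had an unadjusted p under 0.05, 5 lower and 2 higher, against 25.9% of all genes tested. Their median log2 fold change was -0.13, against -0.01 over all genes. At 4 months 0 of 16 were called by edgeR (0.0186% of all genes), with 1 at an unadjusted p under 0.05 (Ebf1, against 3.69% of all genes), and 0 by DESeq2, and their median was 0.03. Calb2 averaged 43.9 ± 7.57 CPM in WT and 45.7 ± 10.5 in PS19 at that age. Bulk libraries differed in Zic1 in both genotypes: at 9 months it was at 91.6, 31.4, 81.2, 81.3 and 27.0 CPM in WT and 84.3, 23.1, 26.7 and 33.5 in PS19. At 4 months it was lowest in WT 3 (18.7 CPM) and PS19 5 (14.8 CPM), which were also lowest in their groups in Calb2 (30.2 and 27.4 CPM) and Ebf3 (2.08 and 1.66 CPM). At 9 months the WT libraries low in Zic1, 2 and 5, had the highest Ebf3 of their group (5.67 and 6.16 CPM) and Calb2 at 45.5 and 50.4 CPM, while PS19 1, high in Zic1, had the highest Calb2 (34.2 CPM) and Ebf3 (3.55 CPM) of its group. Ttr, a choroid plexus gene, also set libraries apart: at 4 months it was at 25.1 CPM in WT 3, 27.1 in PS19 1, 30.3 in PS19 5 and 535 in WT 1, against 2622 to 5772 in the others, and at 9 months at 588 CPM in WT 3 and 3983 to 5412 in the others. The part of these differences between libraries in the 9-month results was not tested. In bulk tissue fewer cells of a type cannot be told apart from less RNA per cell, or from a change in other cells that express these genes.

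**Figure D5:**
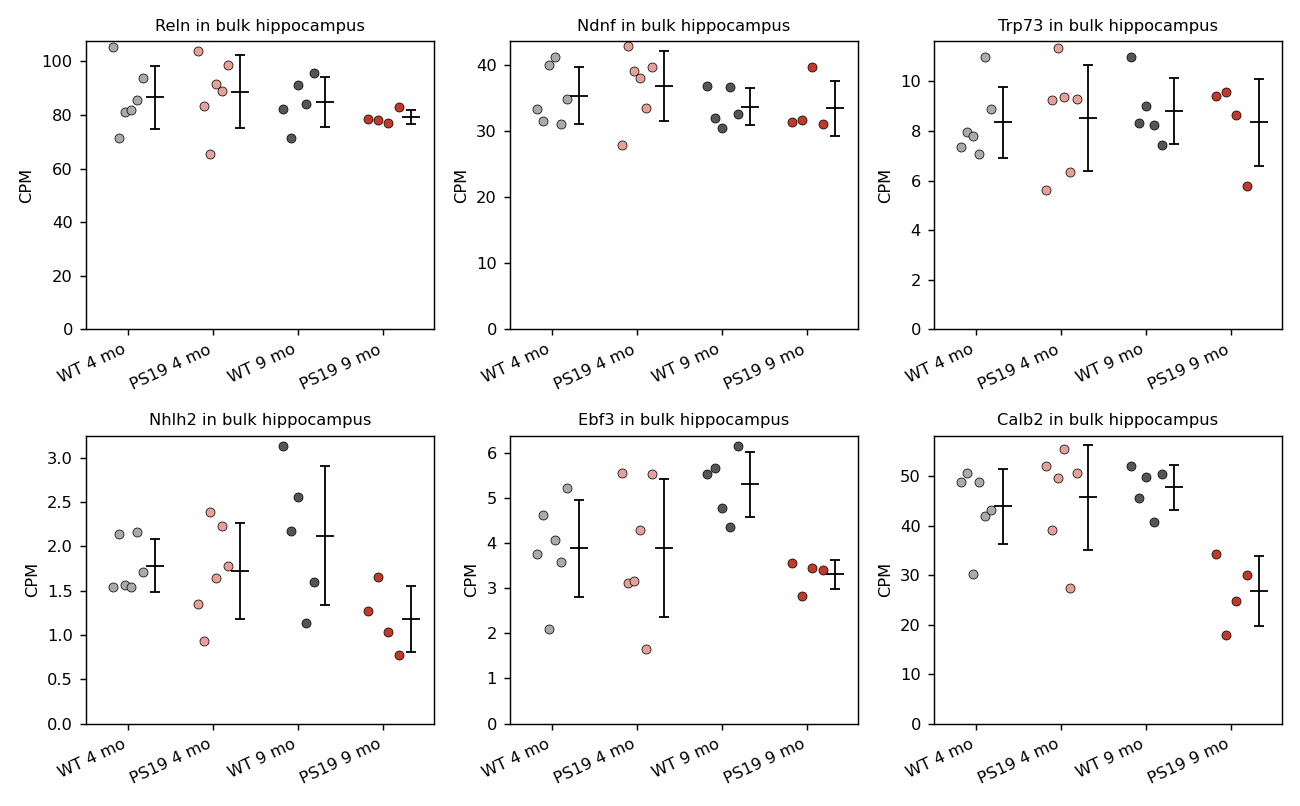
Level (CPM) of Reln, Ndnf, Trp73, Nhlh2, Ebf3 and Calb2 in bulk hippocampus of WT and PS19 animals at 4 months (6 and 6 libraries) and 9 months (5 and 4), with group means and SD beside the points. Calb2 at 9 months is at 40.6 to 52.1 CPM in WT and 17.9 to 34.2 in PS19, and Trp73 overlaps in all groups.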

How the data were processed

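For nuclei, the deposited matrices hold unnormalized UMI counts; per the file headers they come from Cell Ranger 5.0.1. For bulk tissue, the authors deposited unnormalized gene counts, made with featureCounts 2.0.0 without strand per the header of 1 file. The submitters' processing notes name mm10, Seurat, cutadapt, STAR and DESeq2. The treatment of introns is not given in the sources used here. Doublets were called as the highest Scrublet scores (scanpy 1.11.5) up to a preset rate of 0.8% per 1000 barcodes, and kept. UMIs of members were summed per library and tested with edgeR 4.0.16 (R 4.3.3): TMM, filterByExpr, the quasi-likelihood test, 4 groups and sex, and Benjamini-Hochberg adjustment over all genes tested. The 21 bulk libraries entered 1 fit with 4 groups. DESeq2 1.42.0 was an alternative. CPM are given as mean ± SD over libraries, and permutation tests used log2 CPM with a prior count of 2. Granule neurons had at least 3 UMIs of Prox1, 1 of Slc17a7 and at most 1 of Gad1 and Gad2. Genes named were those called, the Cajal-Retzius lists, Atp6v1h, Prnp and Mapt, list genes of high level and the 20 leading genes. Scripts were tested on simulated data. The members and lists were chosen with earlier results of these data known. Of member barcodes, 0 recurred among members of another library and 16 occurred in another library's nuclei. Coordinates are GENCODE M21 (GRCm38). Some genes of the lists are not reported here.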

Additional observations from a re-analysis of the deposited data

Results flagged for a closer look

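Among 112 groups of 4 to 6 libraries, 11 held a library whose gap to its neighbours exceeded Dixon's limit, where chance flags about 1 in 20 groups. In Cajal-Retzius nuclei this was Mab21l1, at 20.4 CPM in CLEAR 3 and 0 in the other 3 CLEAR libraries. It had 3 UMIs in CLEAR members of at most 6000 UMIs. Where all other libraries are at 0, any count exceeds the limit. In bulk at 9 months, PS19 1 stood above the other PS19 libraries in Zic1 (84.3 CPM, next 33.5) and Cacna2d2 (61.9 CPM, next 32.5), and PS19 4 in Ndnf (39.7 CPM, next 31.7). In both Zic1 and Cacna2d2 PS19 1 lay nearer to WT 1, 3 and 4 (81.2 to 91.6 and 72.2 to 84.4 CPM), while WT 2 and 5 lay near the other PS19 libraries (27.0 to 31.4 and 29.7 to 30.1 CPM). In bulk at 4 months, WT 3 stood below the other WT libraries in Zic1 (18.7 CPM, next 69.5) and Cacna2d2 (28.96 CPM, next 57.3). PS19 5 stood below its group in Zic1 (14.8 CPM, next 73.8) and Ebf2 (0.0721 CPM, next 1.70). Lhx1 was at 1.03 CPM in WT 1, Ebf1 at 4.54 CPM in WT 2 and Mab21l1 at 1.92 CPM in PS19 1, each above its group. Members held 3.46% of the UMIs of Zic1 and 8.31% of those of Cacna2d2 in nuclei.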

How the results depend on the processing

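With no filter on low counts the calls were 41 for tau, 33 for CLEAR and 31 for the interaction, and Prnp passed (log2 1.05, edgeR adjusted p 0.0242). That setting kept every gene with any count, so genes with very few UMIs were tested too and these calls are less certain. For tau 0 genes were called without called doublets, under a stricter rule, in members of at most 6000 UMIs, and in these without WT 2, where fewer genes were tested. With the replicate number as a block 9 genes were called for CLEAR. Of 19 same-numbered pairs of libraries 10 correlated over 0.1 (-0.17 to 0.24), and other pairs ranged from -0.22 to 0.21. These ranges are alike, so they do not settle whether replicate numbers pair libraries. Leaving out 1 library gave 1 to 4 calls for tau, 0 to 53 for CLEAR and 0 to 1 for the interaction: 4 for tau and 53 for CLEAR without WT 2, and without CLEAR 3, 2 for tau (Gm43049 and Gm32647) and 1 for the interaction (Klhl1). The tau share difference was -0.0014 points in members of at most 6000 UMIs and ranged from -0.020 to 0.090 over single libraries left out, and the CLEAR share difference from -0.226 to -0.116. Mapt ranged from -0.0091 to 0.094 over libraries left out and was -0.0091 without PS19 2 and -0.003 without CLEAR_PS19 2. The Prnp difference from all other nuclei was 0.0224 with a prior count of 0.5 and ranged from -0.162 to 0.0204 over libraries left out. The Atp6v1h difference from Reln interneurons was 0.0469 under the stricter rule, 0.0714 with the replicate block, 0.0070 without WT 2, 0.029 without CLEAR 3, 0.066 without CLEAR_PS19 3, 0.041 without CLEAR_PS19 4, and ranged from -0.209 to 0.0656 over libraries left out. In bulk at 9 months DESeq2 called 2 (Calb2 and Nhlh2), and leaving out 1 library gave 1 to 3 (3 without the 4-month library PS19 5: Calb2, Ebf3 and Ebf2). Beyond construction, the cause was not tested.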

Other observations

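The following genes lie outside the rule for named genes and were picked after their values were seen. Klhl1, a gene higher in members than in all other nuclei (188 ± 88.5 and 15.2 CPM), averaged 248 ± 76.5 CPM for WT, 133 ± 33.7 for PS19, 114 ± 78.1 for CLEAR and 257 ± 53.5 for CLEAR_PS19. Its tau by CLEAR interaction was 2.08 on the log2 scale (SE 0.51, unadjusted p 7.7e-04, edgeR adjusted p 1.0), and 2.23 in members of at most 6000 UMIs (edgeR adjusted p 0.101). Tafa1, in members of at most 6000 UMIs, averaged 298 ± 106, 297 ± 94.2, 160 ± 36.8 and 129 ± 46.1 CPM in these groups (CLEAR effect -1.13, SE 0.22, edgeR adjusted p 0.0527), and 0.09 in all members. Gm32647, a noncoding RNA, had 53, 89 and 0 UMIs for WT, 1, 6 and 1 for PS19, 2, 18, 0 and 1 for CLEAR and 4, 0, 4 and 0 for CLEAR_PS19 (tau effect -3.20, edgeR adjusted p 0.134), and was at 0 in the female of the WT group. Nearly all of these UMIs lay in members over 6000 UMIs: in members of at most 6000 UMIs Gm32647 had 2, 0, 2 and 1 UMIs in the 4 groups and was not tested, and all other nuclei had 249.9 CPM of it.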
